A study of Mus musculus with 19 samples.

Results

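Cholesterol is made, taken up, stored and exported by a small set of dedicated proteins, and 32 of their genes were followed here. The mouse material was labelled knockout or wild type for miR-146a, or was treated with an oligonucleotide against miR-146a or a control. The genes were chosen by symbol, looked up from the Ensembl gene IDs of the tables: 18 enzymes of synthesis, 8 regulators and 6 genes of transport, out of 55487 listed genes. All 32 had 1 ID each and passed the filter on low counts in both comparisons. The 9 knockout (KO) libraries came from spinal cords with the genotype label miR-146a KO, and the 4 wild-type (WT) libraries from cords labelled miR-146a WT. The labels give no strain, age, sex or cell type of the deletion, and the RNA came from frozen cord tissue, to which every cell type of the cord contributes. The 3 miR-146a LNA libraries and the 3 control LNA libraries came from wild-type motor neurons differentiated from a single mouse embryonic stem cell line, RW.4. These cultures received 10 nM of either LNA, a locked nucleic acid oligonucleotide, by lipid transfection for 72 h. An LNA against a microRNA binds it and blocks its action. The labels do not state whether each library had its own animal or culture, and the p-values below measure only the spread among these libraries, which may be technical.

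Animal cells build cholesterol from acetyl-CoA through mevalonate, isoprenoid diphosphates, squalene and lanosterol. When sterols in the endoplasmic reticulum run low, Scap carries the precursors of the SREBP transcription factors (Srebf1, Srebf2) away from their Insig anchors, the factors are cut free, and they switch on the genes of synthesis and uptake. Oxysterols, made when sterols are plentiful, activate the liver X receptors (Nr1h2, Nr1h3), which switch on export pumps such as Abca1 and Abcg1. In the nervous system most cholesterol is made locally, much of it by oligodendrocytes for myelin.

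Total counts were 28163289 to 39577247 per cord library and 40647549 to 65471742 per culture library. Normalised CPM below are counts scaled to a common library size by the trimmed mean of M values (TMM). The microRNA itself cannot be read in these tables: its precursor gene Mir146 (chr11:43374397-43374461) had 1 count in all KO cords together and 0 in each of the other 3 groups. Its neighbour Pttg1 had 1.057 to 1.81 normalised CPM in 8 KO cords, 13.04 in the library labelled KO replicate 9 and 14.9 to 17.4 in WT cords, so that library stands near the WT cords at this gene. The same library had 1947 normalised CPM of Sod1, against 191 to 275 in the other 12 cords. KO replicate 7 carried skeletal muscle transcripts (summed level 5170 CPM, against at most 13.7 in the other cords). The main cord results are given with and without these libraries. In the cultures, summed CPM of 8 motor neuron markers was 3094 to 3272 with miR-146a LNA and 3077 to 3173 with control LNA, so these markers are present as the label says.

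Per unit of transcript length, the 32 genes spanned a wide range of levels. On the authors' deposited TPM scale, which corrects for length, the highest means in WT cords were those of Srebf2 (162 ± 8.55 TPM), Insig1 (146 ± 11.9), Srebf1 (121 ± 8.42) and Hmgcs1 (108 ± 18.98; SD, n = 4). In control LNA cultures Hmgcs1 (228 ± 14.99 TPM), Acat2 (195 ± 13.6), Cyp51 (170.3 ± 8.92) and Insig2 (144 ± 4.11) came first (SD, n = 3). Insig1 and Insig2 encode the paired anchors of the SREBP precursors, and their order differed between the materials. Insig1 stood at 146 ± 11.9 TPM and Insig2 at 35.4 ± 2.33 TPM in WT cords, while control LNA cultures had 28.2 ± 3.73 TPM of Insig1 and 144 ± 4.11 TPM of Insig2. The lowest values in the cultures were those of Nr1h3 (0.639 ± 0.0709 TPM) and Fdps (1.55 ± 0.0383 TPM) with control LNA. Of the 100-base windows of Fdps transcripts, 54.1% also occur in other genes' transcripts, so its counts can miss reads. Its low value is therefore not shown to be low abundance. Cords and cultures were made and sequenced as different materials, so these levels were set side by side without a test.

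**Figure D1:**
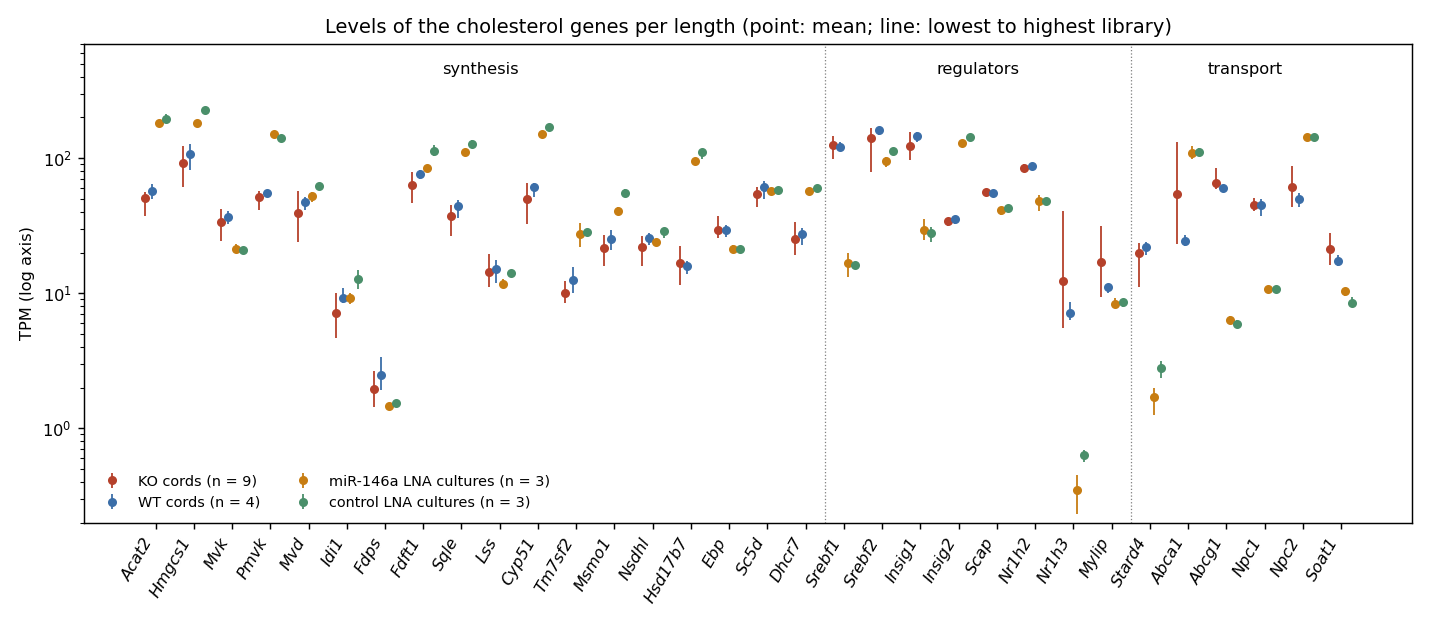
TPM of each of the 32 cholesterol genes (log axis; point, mean; line, lowest to highest library) in KO cords (n = 9), WT cords (n = 4), miR-146a LNA cultures (n = 3) and control LNA cultures (n = 3). Insig1 lies above Insig2 in the cords and below it in the cultures, and Nr1h3 is the lowest member in the cultures.

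In the motor neuron cultures, treatment with miR-146a LNA gave lower transcript levels of 6 of the 18 synthesis enzymes, of their activator Srebf2 and of the sterol carrier Stard4, and a higher level of Soat1. By edgeR's quasi-likelihood test with Benjamini-Hochberg adjustment over all 19099 tested genes, 9 of the 32 members passed, where 8.56% of all genes passed: 8 fell, where 6.16% of all genes fell, and 1 rose, where 2.4% rose. DESeq2 called 12 members, where it called 13.6% of the genes it tested. With limma 11 members were called, all of them lower and without Soat1, where it called 2195 of 19099 genes, 1451 of them lower. The median log2 fold change was −0.18 over the synthesis genes, −0.04 over the regulators and 0.01 over the transport genes, against 0.01 over all tested genes. Of the 18 synthesis genes 15 had a negative log2 fold change, as had 48.5% of all genes. The changes were small: the 8 members that fell had fitted folds of 0.607 (Stard4) to 0.875 (Sqle). The other 23 members did not pass the test.

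Among the early steps, Hmgcs1 and Idi1 fell. Hmgcs1, which makes HMG-CoA for the mevalonate pathway, had 216, 215 and 228 normalised CPM in miR-146a LNA cultures, against 256, 280.2 and 291 in control LNA cultures (log2 fold change −0.33, SE 0.05, adjusted p = 0.000844). The libraries of the treatments did not overlap, and the lowest control library stood clear of the highest miR-146a LNA library. Idi1, the isomerase of the isoprenoid building blocks, had 8.497, 7.61 and 9.48 normalised CPM with miR-146a LNA, against 9.99, 13.7 and 11.8 with control LNA (log2 fold change −0.47, SE 0.13, adjusted p = 0.0349). Here the groups did not overlap but came close, at 9.48 CPM in miR-146a LNA replicate 3 and 9.99 CPM in control LNA replicate 1. The other early enzymes did not pass: log2 fold changes were −0.11 for the thiolase Acat2, 0.04 and 0.09 for the mevalonate pathway kinases Mvk and Pmvk, −0.25 for the decarboxylase Mvd (adjusted p = 0.0706) and −0.07 for Fdps, which makes farnesyl diphosphate.

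The squalene steps fell together with lanosterol synthase. Fdft1, squalene synthase, commits farnesyl diphosphate to sterols and had 92.3, 95.6 and 89.5 normalised CPM in miR-146a LNA cultures, against 112, 122 and 136 in control LNA cultures (log2 fold change −0.42, SE 0.07, adjusted p = 0.0005299). Sqle, squalene epoxidase, had 166, 159.6 and 165 normalised CPM with miR-146a LNA, against 175, 187 and 199 with control LNA (log2 fold change −0.19, SE 0.05, adjusted p = 0.0364). Lss, which closes the rings of lanosterol, had 33.6, 35.6 and 31.5 normalised CPM with miR-146a LNA, against 39.7, 41.5 and 39.04 with control LNA (log2 fold change −0.26, SE 0.07, adjusted p = 0.0355). For all 3 genes each miR-146a LNA library lay below each control LNA library. Fdft1 shows the widest gap of the 3, with its highest miR-146a LNA library well under its lowest control library.

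Of the enzymes that turn lanosterol into cholesterol, Msmo1 was the 1 that passed. Msmo1 oxidises the methyl groups of the sterol ring and had 65.03, 61.7 and 71.8 normalised CPM in miR-146a LNA cultures, against 83.03, 91.05 and 96.2 in control LNA cultures (log2 fold change −0.45, SE 0.07, adjusted p = 0.000515). Every miR-146a LNA library lay below every control LNA library. Just short of the threshold were Cyp51, the lanosterol demethylase (log2 fold change −0.17, adjusted p = 0.0547), the sterol ketoreductase Hsd17b7 (−0.20, adjusted p = 0.05495) and the sterol dehydrogenase Nsdhl (−0.26, adjusted p = 0.0818). Values for the sterol reductase Tm7sf2 (−0.05), the isomerase Ebp (0.03), the desaturase Sc5d (−0.00071) and the reductase Dhcr7 (−0.06) were close to 0. Across the 18 enzymes, all 3 miR-146a LNA libraries lay below all 3 control libraries in 10, where 15.1% of all genes did so, and above them in 1 (Pmvk), where 12.8% of all genes did so.

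Srebf2 encodes the SREBP that chiefly drives cholesterol synthesis, and it fell while Srebf1, better known for fatty acid synthesis, did not pass the test. Srebf2 had 183, 189.8 and 166 normalised CPM with miR-146a LNA, against 215, 213 and 212 with control LNA (log2 fold change −0.25, SE 0.05, adjusted p = 0.00735). The control libraries lay within 3 CPM of one another, and every miR-146a LNA library was lower. Srebf1 had 29.6, 25.1 and 20.1 normalised CPM with miR-146a LNA, on both sides of 23.8, 23.7 and 24.6 with control LNA (log2 fold change 0.05). The other regulators did not pass: the log2 fold change was 0.06 for Insig1, −0.16 for Insig2 (adjusted p = 0.0839), −0.05 for the escort Scap, 0.0026 for Nr1h2 and −0.03 for Mylip, a ubiquitin ligase that marks lipoprotein receptors for breakdown. Nr1h3 was near the limit of counting, with 0.243, 0.151 and 0.306 normalised CPM with miR-146a LNA and 0.3701, 0.4395 and 0.4605 with control LNA (log2 fold change −0.86, SE 0.49, adjusted p = 0.3197).

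Among the transport genes, Stard4 fell and Soat1 rose. Stard4, a soluble carrier that moves sterol between membranes, had 2.92, 2.71 and 1.87 normalised CPM with miR-146a LNA, against 3.45, 4.23 and 4.64 with control LNA (log2 fold change −0.72, SE 0.21, adjusted p = 0.0427). Soat1 esterifies cholesterol for storage and had 24.6, 27.8 and 28.5 normalised CPM with miR-146a LNA, against 20.8, 24.1 and 20.3 with control LNA (log2 fold change 0.31, SE 0.09, adjusted p = 0.0409). For both genes the groups did not overlap, although miR-146a LNA replicate 1 and control LNA replicate 2 nearly met at Soat1. The export pump Abca1 had 287, 332 and 272 normalised CPM with miR-146a LNA and 325, 288 and 299 with control LNA (log2 fold change −0.03, adjusted p = 0.828), and these ranges overlapped. Abcg1, an export pump for lipoprotein acceptors, had a log2 fold change of 0.10. Npc1 and Npc2, which pass cholesterol out of lysosomes, had −0.01 and 0.02.

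**Figure D2:**
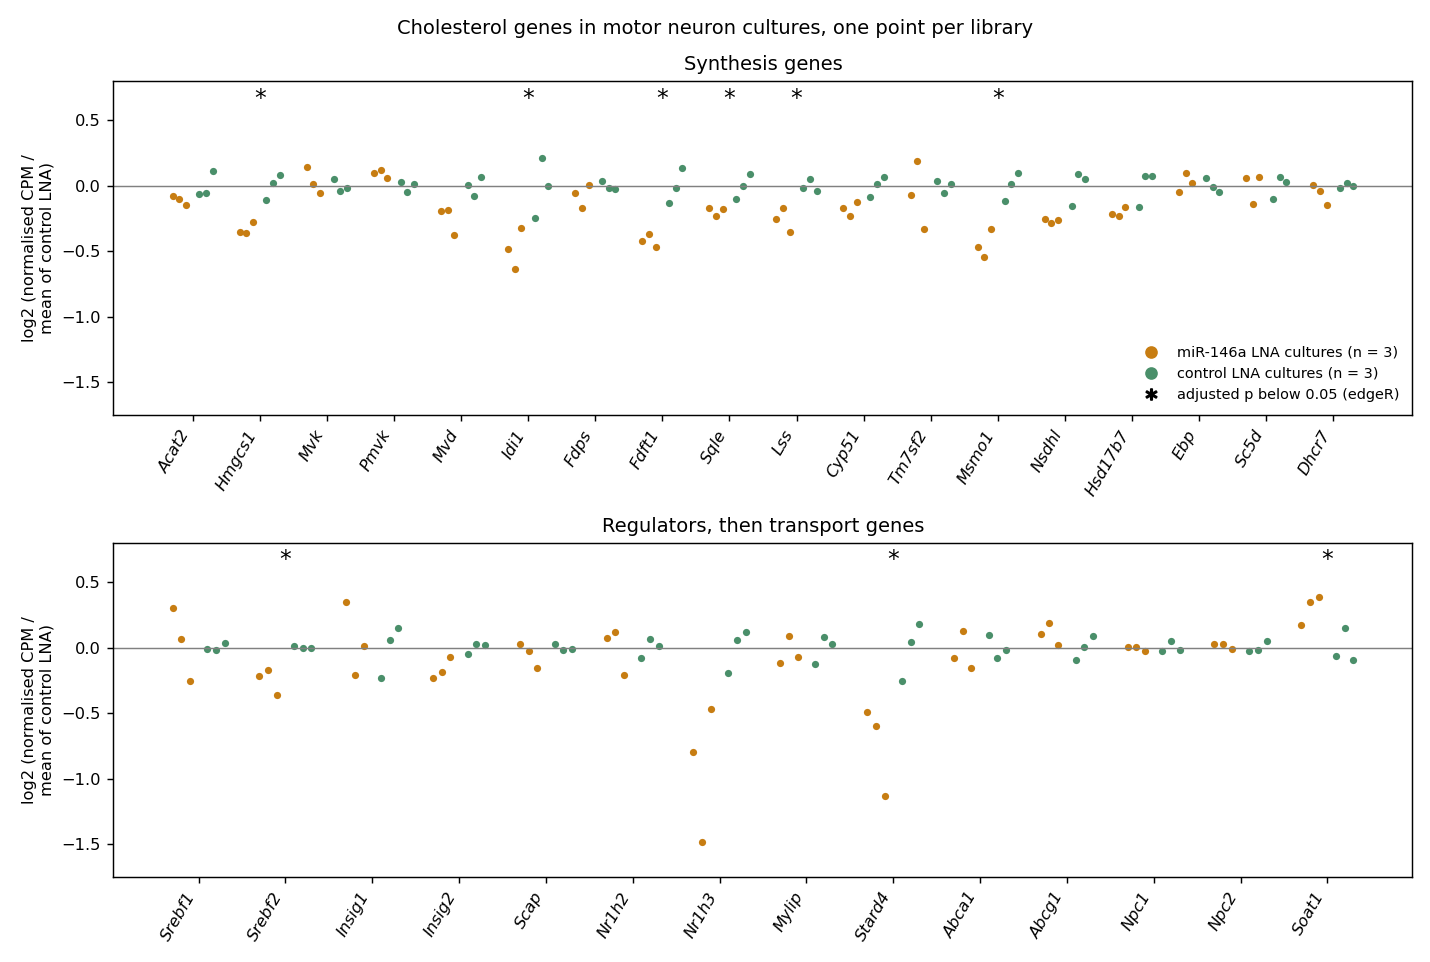
Normalised CPM of each cholesterol gene in the cultures, as log2 of the ratio to the control LNA mean, 1 point per library (3 miR-146a LNA, 3 control LNA); an asterisk marks an adjusted p below 0.05 by edgeR. The 9 marked genes are Hmgcs1, Idi1, Fdft1, Sqle, Lss, Msmo1, Srebf2, Stard4 and Soat1, and of these only Soat1 lies above its controls.

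Scaling by library size alone, which moved the median of all genes to a log2 fold change of 0.05, left 5 member calls (Hmgcs1, Fdft1, Msmo1, Srebf2 and Soat1) and called 741 genes higher and 831 lower, against 458 higher and 1177 lower with TMM scaling. The calls of Hmgcs1, Fdft1, Msmo1 and Srebf2 held in 6 of 6 fits that left out 1 culture library (largest adjusted p 0.0132, 0.00597, 0.00706 and 0.0495). Those of Idi1 and Sqle held in 2 of those 6 fits (without miR-146a LNA replicate 3 and without control LNA replicate 1), Stard4 in 2 (without miR-146a LNA replicate 1 and without control LNA replicate 1), Soat1 in 2 (without miR-146a LNA replicate 1 and without control LNA replicate 2) and Lss in 1 (without miR-146a LNA replicate 2). The largest adjusted p in these fits was 0.227 for Idi1, 0.195 for Sqle, 0.178 for Lss, 0.181 for Stard4 and 0.178 for Soat1, and each log2 fold change kept its sign. Cell markers also moved between the treatments. Of the 8 motor neuron markers 2 rose, Chodl (log2 fold change 1.75, adjusted p = 8.6e-05) and Isl1 (0.31, adjusted p = 0.00177). Summed CPM of 8 neuron markers was 6839 to 6993 with miR-146a LNA and 7269 to 7524 with control LNA, and 2 of them (Syt1, Map2) fell. Summed CPM of 6 cycling progenitor markers was 73.3 to 90.5 with miR-146a LNA and 55.2 to 63.6 with control LNA, and 2 of them (Top2a, Nes) rose. Summed CPM of 6 oligodendrocyte precursor markers was 10.7 to 11.9 with miR-146a LNA and 6.66 to 8.43 with control LNA, and 2 of the 4 tested (Pdgfra, Bcas1) rose. The myelin marker Mal and the microglial marker Siglech had 0 counts in the cultures. The part of these cell markers in the results on cholesterol genes was not tested, and in bulk RNA fewer cells of a type and less RNA per cell cannot be told apart.

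Promoter sequence is shown for 4 members that fell in the cultures, because SREBP factors act at promoters of this pathway, usually beside the factor NF-Y. RefSeq promoter windows (build GRCm38.p6, from 250 bases before to 50 bases after a transcript start) were found for 26 of the 32 members. Capitals mark the sterol regulatory element searched as TCACNCCAC and the NF-Y box CCAAT, each searched on both strands, and the motifs shared no base in these windows. The windows lie at chr13:119690101-119690400 (plus strand) for Hmgcs1, chr13:8885356-8885655 (plus strand) for Idi1, chr8:64733529-64733828 (minus strand) for Msmo1 and chr15:82147019-82147318 (plus strand) for Srebf2.
Hmgcs1: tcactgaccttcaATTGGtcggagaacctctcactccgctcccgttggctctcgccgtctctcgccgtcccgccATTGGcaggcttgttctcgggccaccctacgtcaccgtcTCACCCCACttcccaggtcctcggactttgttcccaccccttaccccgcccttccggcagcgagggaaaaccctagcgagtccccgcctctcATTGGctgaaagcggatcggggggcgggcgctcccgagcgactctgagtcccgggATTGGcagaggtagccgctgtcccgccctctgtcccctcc
Idi1: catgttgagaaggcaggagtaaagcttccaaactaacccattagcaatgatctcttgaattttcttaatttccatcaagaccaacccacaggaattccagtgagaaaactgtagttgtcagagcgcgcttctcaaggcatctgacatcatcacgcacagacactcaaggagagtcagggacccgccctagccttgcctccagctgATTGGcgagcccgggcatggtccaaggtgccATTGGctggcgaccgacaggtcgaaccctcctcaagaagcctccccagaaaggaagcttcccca
Msmo1: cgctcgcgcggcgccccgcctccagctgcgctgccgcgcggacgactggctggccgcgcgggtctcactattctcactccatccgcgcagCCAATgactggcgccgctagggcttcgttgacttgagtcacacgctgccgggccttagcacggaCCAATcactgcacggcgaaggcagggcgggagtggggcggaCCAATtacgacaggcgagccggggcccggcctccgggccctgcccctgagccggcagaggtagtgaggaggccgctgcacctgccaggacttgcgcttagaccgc
Srebf2: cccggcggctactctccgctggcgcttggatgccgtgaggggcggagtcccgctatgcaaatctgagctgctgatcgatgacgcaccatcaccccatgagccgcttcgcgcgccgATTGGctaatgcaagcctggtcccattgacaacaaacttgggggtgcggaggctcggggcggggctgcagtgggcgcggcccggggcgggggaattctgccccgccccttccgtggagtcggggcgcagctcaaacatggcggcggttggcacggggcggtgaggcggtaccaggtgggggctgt
The element TCACNCCAC was found in 1 of the 35 windows of the 26 matched members, that of Hmgcs1, at 137 bases before the start, and in 1.24% of all 32851 RefSeq promoter windows. CCAAT was found in 14 of the 18 windows of synthesis genes, 6 of the 14 of regulators and 2 of the 3 of transport genes, and in 37.4% of all windows. The E-box CACGTG, a palindrome, was found in 7 of the 35 windows and in 7.15% of all windows. Those 7 windows belong to 6 of the 26 matched members, as overlapping windows of Scap hold the same match. A match is a string of letters and not a shown binding site. Only exact matches were counted, and the Srebf2 window holds tcaccccat, which differs from TCACNCCAC at its last base. A window without a match is therefore not shown to lack a site.

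The seed of miR-146a is shown beside the strings in the cholesterol genes that pair with it. RefSeq gives the mature strand, miR-146a-5p, at chr11:43374435-43374456 (minus strand), and capitals mark its seed, bases 2 to 8.
miR-146a-5p: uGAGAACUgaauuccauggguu
The complementary string AGTTCTC occurs in the longest 3′ UTR (GENCODE M21) of 4 of the 32 members (12.5%) and of 10.8% of all 21677 genes with a 3′ UTR. It occurs 1 time each in Hmgcs1 (gene at chr13:119690379-119708260), Soat1 (chr1:156424525-156474331) and Stard4, and 3 times in Lss (chr10:76531588-76557138), and 5 of these 6 sites, all but that of Stard4, are shown 5′ to 3′ with the string in capitals.
Hmgcs1: gaaaattcactagcaAGTTCTCt
Lss: acagcatgtaactccAGTTCTCa
Lss: caggtcatgctgtggAGTTCTCc
Lss: agccccagtttagggAGTTCTCc
Soat1: gcattactttgtagcAGTTCTCc
Of the 4 genes, Soat1 rose with miR-146a LNA while Hmgcs1, Lss and Stard4 fell, as described above. A string match does not show that the microRNA binds there, and no string match was found in the other 28 members.

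In the spinal cords no cholesterol gene passed the test, although the synthesis enzymes leaned one way. By edgeR, 0 of the 32 members were called in KO against WT cords, as were 0% of all 22174 tested genes, with a smallest adjusted p of 0.292 among the members. The log2 fold change was negative for 17 of the 18 synthesis genes (46.9% of all genes), with a median of −0.28 over the 18, −0.07 over the regulators, 0.15 over the transport genes and 0.02 over all tested genes. At an unadjusted p below 0.05, 11 of the 18 synthesis genes and the regulator Insig1 were lower, where 6.8% of all genes were, and the transport gene Abca1 was higher, where 7.53% of all genes were. DESeq2 called 351 genes (1.53% of those it tested) and limma 3, none of them a member (smallest adjusted p of a member 0.0593 and 0.0687). In no member did all 9 KO cords lie to one side of all 4 WT cords. This was rare among all genes too: every KO cord was below every WT cord in 0.798% and above in 0.505%. A count of 0 among 32 members is near those shares. Without KO replicate 7 and the library labelled KO replicate 9, 0 members were called (smallest adjusted p 0.159), 18 of 18 synthesis genes had a negative log2 fold change with a median of −0.28, and 10 of them but no regulator were lower at an unadjusted p below 0.05. That count of 11 rested on single WT cords: it was 5 without WT replicate 1, where Insig1 also missed that limit, and 6 without WT replicate 2, against 9 to 14 without any other cord.

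The 4 synthesis genes with the smallest p were Tm7sf2, Fdft1, Sc5d and Idi1. Tm7sf2, a reductase late in the pathway, had 15.02, 16.6, 12.7, 12.4, 13.2, 12.1, 12.2, 13.9 and 15.3 normalised CPM in KO replicates 1 to 9, against 17.4, 17.0, 21.8 and 15.2 in WT cords (log2 fold change −0.38, SE 0.11, adjusted p = 0.292). 7 of the 9 KO cords lay below every WT cord, and KO replicates 2 and 9 reached into the WT range. Fdft1 had 80.8, 102, 85.3, 60.6, 78.8, 81.3, 79.9, 87.4 and 72.3 normalised CPM in KO cords, against 106, 104, 99.4 and 98.5 in WT cords (log2 fold change −0.33, SE 0.10, adjusted p = 0.292). All KO cords but replicate 2 lay below every WT cord at this gene. Sc5d, the desaturase of the late ring, had 81.8, 91.03, 80.9, 67.3, 84.8, 82.1, 85.2, 83.7 and 84.3 normalised CPM in KO cords, against 103, 101, 96.1 and 83.7 in WT cords (log2 fold change −0.22, SE 0.07, adjusted p = 0.292). At Sc5d the KO cords overlapped WT replicate 4 only, with 5 of them below it. Idi1 had 6.75, 11.1, 8.28, 5.18, 8.45, 8.44, 7.34, 8.23 and 6.81 normalised CPM in KO cords, against 11.9, 10.04, 9.94 and 10.1 in WT cords (log2 fold change −0.42, SE 0.15, adjusted p = 0.292), and again all but KO replicate 2 were below every WT cord.

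The remaining 14 enzymes had log2 fold changes of −0.39 (Fdps) to 0.02 (Hsd17b7). From acetyl-CoA to isoprenoids these were −0.24 for Acat2, −0.29 for Hmgcs1, −0.17 for Mvk, −0.16 for Pmvk, −0.35 for Mvd and −0.39 for Fdps. From squalene onward they were −0.29 for Sqle, −0.14 for Lss, −0.35 for Cyp51, −0.27 for Msmo1, −0.29 for Nsdhl, 0.02 for Hsd17b7, −0.04 for Ebp and −0.18 for Dhcr7. The KO cords did not share the lean equally. KO replicate 4 was the lowest of all 13 cords in 14 of the 18 enzymes and below every WT cord in 18, at a median of 62.9% of the WT mean, while KO replicate 2 was below every WT cord in 1 enzyme, at a median of 102%. The other 7 KO cords had medians of 79.4% (replicate 6) to 88.3% (replicate 7) of the WT mean, and the WT cords themselves had medians of 90.3% to 106%.

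**Figure D3:**
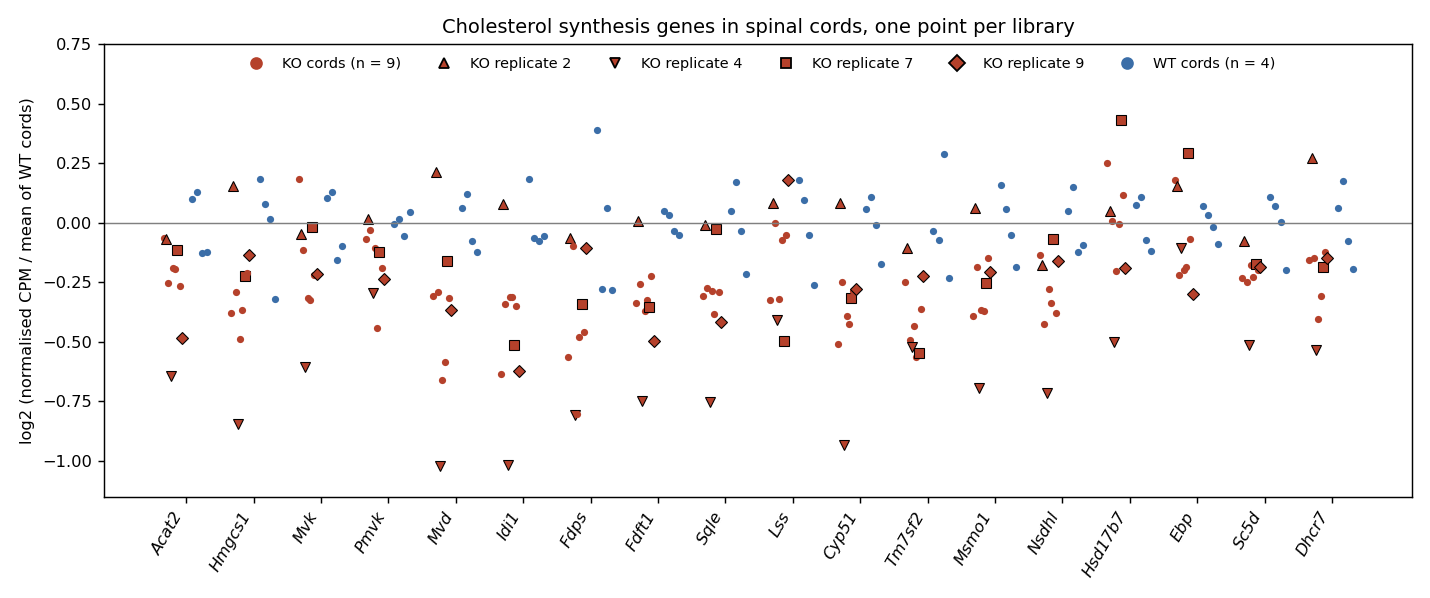
Normalised CPM of the 18 synthesis genes in each cord library, as log2 of the ratio to the WT mean; KO cords (n = 9) to the left and WT cords (n = 4) to the right of each tick, with KO replicates 2, 4, 7 and 9 marked by shape. KO replicate 4 is the lowest point in 14 of the 18 genes, and KO replicate 2 lies among the WT cords in most.

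The lowest and the most WT-like KO cords also differed in glial markers, and other cell type markers moved between the groups. Summed CPM of 8 markers of activated microglia was 1067 in KO replicate 4, 1096 in KO replicate 7, 456 in KO replicate 1 and 159 in KO replicate 2, against 171 to 207 in WT cords, and all 8 had a positive log2 fold change without passing the test. Summed CPM of 8 reactive astrocyte markers was 6245 in KO replicate 4, 8783 in KO replicate 7 and 7348.5 in KO replicate 1. It was 1276 in KO replicate 2, against 1476 to 2404 in WT cords. Glial markers and synthesis genes did not put the KO cords in the same order. Synthesis gene medians were 88.3% of the WT mean in KO replicate 7, 82.4% in KO replicate 1 and 62.9% in KO replicate 4. The 13 myelin markers summed to 12018 to 16874 CPM in KO cords and 13187 to 18040 CPM in WT cords, with 11 negative log2 fold changes and a median of −0.16. Neuron markers summed to 3840 to 4624 CPM in KO cords and 4470 to 4949 CPM in WT cords (6 of 8 negative), and motor neuron markers to 1051 to 1791 CPM in KO cords and 1337 to 1762 CPM in WT cords (6 of 8 negative, median −0.27). The 6 red blood cell markers summed to 105 to 707 CPM in KO replicates 1 to 8 and 36.5 CPM in the library labelled KO replicate 9, against 22.7 to 44.5 CPM in WT cords. The part of these cell types in the values of the synthesis genes was not tested. Xist was at 0.278 CPM in KO replicate 1, 2.14 in the library labelled KO replicate 9 and 1.49 in WT replicate 1, and at 228 CPM or more in the other cords, and with its level as a covariate no member was called either (smallest adjusted p 0.303).

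Of the regulators and transport genes, Abca1, Insig1, Mylip and Soat1 had the smallest p in cords. Abca1, the liver X receptor target that pumps cholesterol out of cells, had 211, 75.9, 114, 197, 128, 141, 424, 142 and 142 normalised CPM in KO replicates 1 to 9, against 72.5, 93.01, 79.7 and 83.9 in WT cords (log2 fold change 1.09, SE 0.38, adjusted p = 0.292). 8 of the 9 KO cords exceeded every WT cord, KO replicate 7 was highest, and KO replicate 2 lay within the WT range. Without KO replicate 7 and the library labelled KO replicate 9 the log2 fold change of Abca1 was 0.82 (SE 0.26, adjusted p = 0.21). Insig1 had 100.04, 154, 126, 95.4, 118, 127, 103, 146 and 103 normalised CPM in KO cords, against 149, 161, 137 and 139.99 in WT cords (log2 fold change −0.30, SE 0.12, adjusted p = 0.305). At Insig1, 7 KO cords were below every WT cord, and KO replicates 2 and 8 were not.

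Mylip, also a liver X receptor target, had 20.3, 9.64, 11.9, 22.9, 14.3, 16.4, 31.7, 15.5 and 12.2 normalised CPM in KO cords, against 10.2, 12.3, 11.4 and 12.9 in WT cords (log2 fold change 0.55, SE 0.27, adjusted p = 0.362). Its 3 highest values were again those of KO replicates 7, 4 and 1, with KO replicate 2 below the WT cords. Soat1 had 68.6, 54.5, 59.97, 79.9, 50.1, 59.1, 85.6, 64.3 and 60.8 normalised CPM in KO cords, against 58.4, 54.8, 52.9 and 53.2 in WT cords (log2 fold change 0.24, SE 0.12, adjusted p = 0.374), with KO replicates 7 and 4 highest. The lysosomal protein gene Npc2 followed the same order in its upper libraries, with 149, 141 and 122 normalised CPM in KO replicates 7, 4 and 1, against 81.2 to 93.6 in WT cords (log2 fold change 0.25, adjusted p = 0.525). These are the 3 KO cords with the highest sums of activated microglia, homeostatic microglia and reactive astrocyte markers. Homeostatic microglia markers summed to 943, 847 and 814 CPM in KO replicates 7, 4 and 1, against 322 to 390 in WT cords. KO replicate 7 also had the highest sums of fibroblast (2474 CPM), Schwann cell (480) and endothelial (494) markers. The part of these cell types in the order of the cords was not tested.

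**Figure D4:**
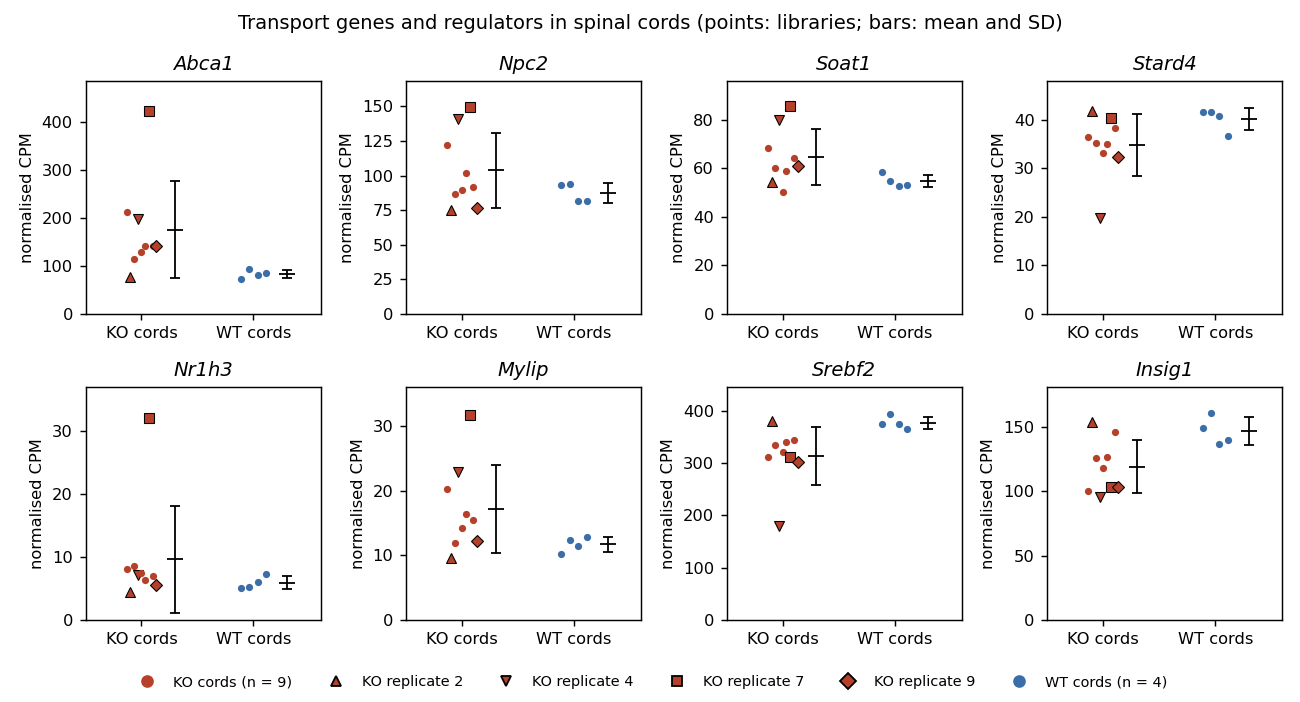
Normalised CPM of 4 transport genes (top) and 4 regulators (bottom) in KO cords (n = 9) and WT cords (n = 4), 1 point per library with mean and SD. At Abca1, 8 of 9 KO cords lie above the WT cords and KO replicate 7 is highest, and at Srebf2 KO replicate 4 lies far below the others.

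Srebf2 had 312, 382, 335, 180.0, 322, 341, 311, 345 and 302 normalised CPM in KO cords, against 375, 395, 375 and 367 in WT cords (log2 fold change −0.26, SE 0.13, adjusted p = 0.377), and all KO cords but replicate 2 were below every WT cord. Stard4 had 36.4, 41.7, 35.2, 19.8, 33.1, 35.1, 40.3, 38.3 and 32.4 normalised CPM in KO cords, against 41.5, 41.6, 40.8 and 36.7 in WT cords (log2 fold change −0.21, adjusted p = 0.485), and KO replicate 4 was lowest at both genes. Nr1h3, the liver X receptor typical of macrophages and liver, had 4.38 to 8.60 normalised CPM in 8 KO cords and 32.1 in KO replicate 7, against 5.03 to 7.36 in WT cords. Its log2 fold change was 0.70 over all cords and 0.25 without KO replicate 7 and the library labelled KO replicate 9. The other members gave log2 fold changes of −0.02 for Srebf1, −0.11 for Insig2, −0.04 for Scap, −0.10 for Nr1h2, 0.06 for Abcg1 and −0.06 for Npc1. The library labelled KO replicate 9 was the lowest of all cords in 4 of the 8 regulators.

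Whether the 2 materials differed was tested for every gene as the knockout effect minus the LNA effect, in 1 edgeR fit over all 19 libraries. No member passed, where 1.75% of 24152 genes did, and the smallest adjusted p among the members was 0.34. The differences nearest to the threshold were those of Stard4 at 0.53 (SE 0.25, adjusted p = 0.3402) and Abca1 at 1.14 (SE 0.54, adjusted p = 0.347) on the log2 scale, both with an unadjusted p below 0.05, as 8.68% of all genes had in that direction. For the 6 enzymes that fell in the cultures the estimated differences were 0.06 (SE 0.20) for Hmgcs1, 0.08 (SE 0.24) for Idi1, 0.11 (SE 0.15) for Fdft1, −0.07 (SE 0.16) for Sqle, 0.14 (SE 0.18) for Lss and 0.20 (SE 0.16) for Msmo1, with adjusted p of 0.614 (Msmo1) or more. Without KO replicate 7 and the library labelled KO replicate 9 the test called 958 genes of 23485 and again no member, with the smallest adjusted p among the members at Nr1h3 (difference 1.13, SE 0.36, adjusted p = 0.0837). The calls of 9 members in the cultures and of none in the cords are therefore not shown to be a difference between the materials.

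**Figure D5:**
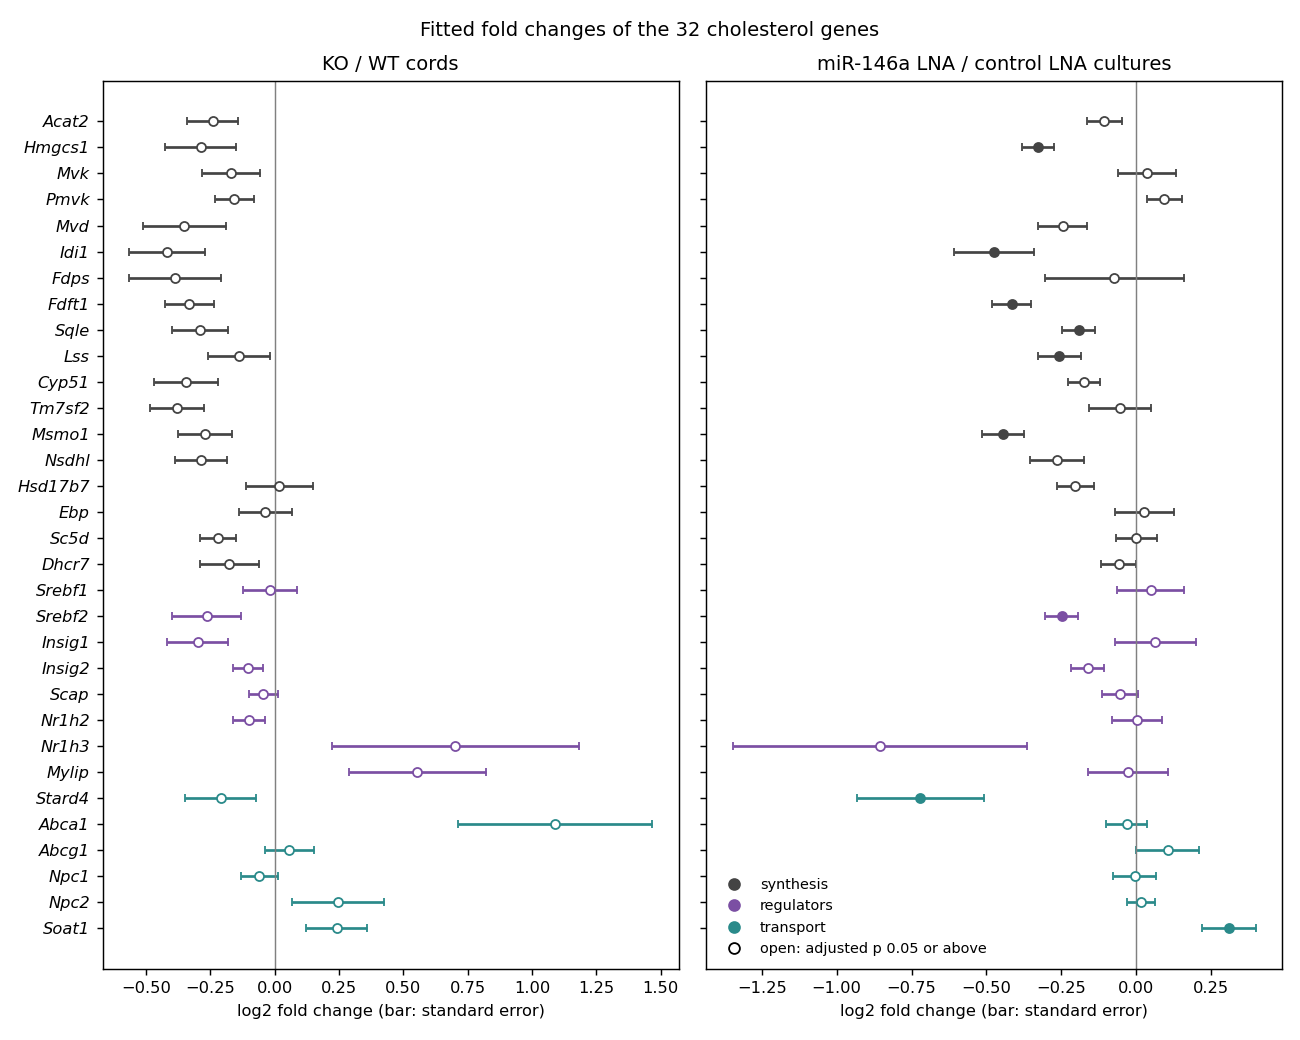
Fitted log2 fold change of each of the 32 genes with its standard error, KO over WT cords on the left and miR-146a LNA over control LNA cultures on the right; filled points have an adjusted p below 0.05. The synthesis genes lie mostly left of 0 in both, no cord point is filled, and Soat1 is the 1 filled point to the right of 0.

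Several members share sequence with other genes, and the counting kept reads that aligned to 1 place and 1 gene, so reads from shared sequence can be missing from their counts. Of the 100-base windows of a member's transcripts, 54.1% also occur in other genes' transcripts for Fdps, 30.6% for Acat2 (Acat3, Tcp1), 24.7% for Idi1, 21.5% for Fdft1, 15.7% for Tm7sf2 (Vps51) and 9.93% for Hmgcs1. Fdps overlaps the protein-coding gene Gm43738 by 7512 bases on the same strand, where reads that fit both genes are not counted. Over all libraries Gm43738 had 3 counts and Fdps 1833. Fdft1 overlaps Ctsb by 774 bases on the opposite strand, and the strand setting of the counting is not given in the sources used here. The values of these genes are therefore uncertain in level. Among the other called members the share was 0% for Sqle, Msmo1, Srebf2, Stard4 and Soat1 and 1.25% for Lss.

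Other genes of sterol and lipid metabolism changed in scattered members of the cultures, on lists of 64 genes beside the 32, where 6.16% of all tested genes fell and 2.4% rose. Of 10 genes of SREBP processing 1 fell and none rose, and of 6 tested oxysterol enzymes 1 rose. Of 19 tested genes of other sterol transport 3 fell and 1 rose, of 16 fatty acid synthesis genes 1 fell and 1 rose, and of 10 genes of other isoprenoid branches 1 fell. Mbtps2, the protease that makes the second cut of SREBP precursors, had 21.3, 22.5 and 23.1 normalised CPM with miR-146a LNA, against 27.8, 28.8 and 28.8 with control LNA (log2 fold change −0.35, SE 0.08, adjusted p = 0.00735). Acacb, the acetyl-CoA carboxylase of the mitochondrial surface, had 4.601, 3.37 and 3.74 normalised CPM with miR-146a LNA, against 2.04, 1.502 and 1.803 with control LNA (log2 fold change 1.13, SE 0.21, adjusted p = 0.00247). These groups did not overlap at either gene, with Acacb above and Mbtps2 below the controls. The other genes with the smallest p were Coq2 of ubiquinone synthesis (log2 fold change −0.35, adjusted p = 0.003302), the oxysterol-binding protein relatives Osbpl11 (−0.30, adjusted p = 0.00518) and Osbpl1a (0.27, adjusted p = 0.0128), and the lipoprotein receptor Vldlr (−0.23, adjusted p = 0.0136).

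In the cords none of these other genes was called by edgeR. The smallest p were those of Cyp7b1, an oxysterol hydroxylase, and of Sec24d, a coat protein of vesicles that leave the endoplasmic reticulum. Cyp7b1 had 8.26, 7.24, 7.64, 7.35, 7.55, 7.10, 9.44, 7.79 and 7.73 normalised CPM in KO cords, against 5.38, 5.703, 6.73 and 6.27 in WT cords (log2 fold change 0.37, SE 0.10, adjusted p = 0.292). Sec24d had 25.8, 19.3, 21.01, 25.1, 23.1, 23.7, 32.5, 22.9 and 22.3 normalised CPM in KO cords, against 17.0, 17.9, 18.9 and 18.9 in WT cords (log2 fold change 0.40, SE 0.11, adjusted p = 0.292). At both genes every KO cord, replicate 2 and the library labelled replicate 9 included, exceeded every WT cord, as at 0.505% of all genes, and DESeq2 gave adjusted p of 0.0376 and 0.0432.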

How the data were processed

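Per the series' design text, ribosomal RNA was removed by RNase H, fragments were primed with random hexamers, and paired reads of 150 bases were aligned to Ensembl release 101 with STAR 2.7.9a1, and featureCounts counted unambiguous unique alignments. The build was GRCm38, per the submitters' processing notes. For strand setting and duplicates, the method is not given in the sources used here. The authors deposited whole-number counts per gene, which every test used. The authors deposited CPM, which matched counts over their sum in all 19 libraries, and deposited FPKM, not used here. The authors deposited TPM, used for levels between genes. Symbols came from GENCODE M21 (99.4% of 55487 IDs).

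The members, lists and tests were chosen with earlier results of these data known. Each comparison was fitted on its own 2 groups with edgeR 4.0.16 (R 4.3.3): default filter on low counts, TMM scaling, robust quasi-likelihood test, Benjamini-Hochberg adjustment over all tested genes, threshold 0.05. Standard errors came from the fold change and F value. The script was tested on simulated data. Alternatives were DESeq2 1.42.0, limma 3.58.1 (voom with quality weights), other scalings, no filter, leaving out libraries, Xist as covariate, and a replicate block in the cultures. Every library value is given for members called in either comparison and, in cords, for the 4 synthesis and the 4 other members with the smallest p. Of other lists, up to 6 called genes per comparison, or the 2 with the smallest p, are named. Cord replicate numbers follow accession order and pair nothing. Replicates of a group differed beyond sampling noise (smallest chi-square per degree of freedom 6.03). A count of 0 allows up to 3 counts, or 0.0758 to 0.107 CPM per cord library and 0.0458 to 0.0738 CPM per culture library, for counting error only.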

Additional observations from a re-analysis of the deposited data

Results flagged for a closer look

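Dixon's test was run on 64 groups of 4 or 9 cord libraries (32 genes in KO and in WT cords). In 9 groups a library stood apart from the rest, which chance gives in about 1 of 20 groups. The groups share the same cords and are not independent, so the count of 9 was not tested against that share. KO replicate 4 was low at Sc5d (67.3 normalised CPM, next lowest 80.9), Srebf2 (180.0, next 302) and Stard4 (19.8, next 32.4). KO replicate 7 was high at Abca1 (424 normalised CPM, next highest 211) and Nr1h3 (32.1, next 8.60). KO replicate 2 was high at Dhcr7 (62.4 normalised CPM, next highest 47.5). The library labelled KO replicate 9 was low at the liver X receptor gene Nr1h2 (73.9 normalised CPM, next lowest 87.1). Among WT cords, replicate 1 was high at Idi1 (11.9 normalised CPM, next highest 10.1) and replicate 4 was low at Stard4 (36.7, next lowest 40.8). KO replicates 4 and 7 are also the cords with the highest summed markers of activated microglia (1067 and 1096 CPM, against 171 to 207 in WT cords). The same holds for homeostatic microglia markers (847 and 943 CPM, against 322 to 390 in WT cords). The part of these markers was not tested.

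The knockout effect minus the LNA effect passed the edgeR test for 4 genes of the other lipid lists and for none of the 32 members. It was 0.38 (SE 0.09, adjusted p = 0.0309) for Mbtps2, which had a log2 fold change of 0.00 in cords and −0.35 in cultures. It was −1.09 (SE 0.24, adjusted p = 0.0214) for Cyp27a1, the mitochondrial sterol hydroxylase, which had −0.12 in cords and 0.99 in cultures. It was −0.42 (SE 0.09, adjusted p = 0.0217) for Osbpl1a, which had −0.17 in cords and 0.27 in cultures. It was −0.89 (SE 0.22, adjusted p = 0.04795) for Thrsp, a gene of lipogenic tissue, which had −0.31 in cords and 0.60 in cultures. The culture values of 2 of these genes rest on few reads. Thrsp had 29 to 46 counts per miR-146a LNA library and 21 to 36 per control LNA library. Cyp27a1 had 96 to 135 and 40 to 63 counts. Without KO replicate 7 and the library labelled KO replicate 9 all 4 passed (adjusted p 0.0188 for Mbtps2, 0.0208 for Cyp27a1, 0.0128 for Osbpl1a and 0.0212 for Thrsp). With limma Cyp27a1 (adjusted p = 0.1096) and Thrsp (0.179) did not pass, and with library size alone Mbtps2 (0.0819) did not. Cords and cultures also differ in cell makeup and depth, and what sets these differences cannot be told apart.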

How the results depend on the processing

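In cords, DESeq2 called 351 genes, limma 3, edgeR without KO replicates 7 and 9 together 8, and edgeR without 1 library 0 to 2, with 0 members called by any of them. The sign of 2 members near 0 changed there. Hsd17b7 was −0.020 with limma, −0.011 without KO replicates 7 and 9, and −0.032 to 0.072 without 1 library. Srebf1 was 0.059 with limma, 0.0044 with library size alone, 0.055 without KO replicates 7 and 9, and −0.071 to 0.040 without 1 library. In cultures, leaving out 1 library gave 778 to 1985 called genes, 4 to 9 called members and a synthesis median of −0.23 to −0.14, and library size alone gave 5 called members and a synthesis median of −0.14. DESeq2 called 12 members and limma 11 without Soat1 (0.27 there), and DESeq2 gave no adjusted p for Nr1h3. Culture values near 0 changed sign: Sc5d was 0.000283 with DESeq2, 0.0032 with DESeq2's size factors, 0.045 with library size alone and 0.0049 with no filter, Tm7sf2 0.011 and Abca1 0.0040 with limma, Mylip 0.017, Abca1 0.012 and Npc1 0.040 with library size alone, and Npc1 0.00059 with no filter. Without 1 library they ranged from −0.12 to 0.027 for Abca1, −0.013 to 0.064 for Ebp, −0.090 to 0.19 for Insig1, −0.017 to 0.077 for Mvk, −0.094 to 0.014 for Mylip, −0.020 to 0.018 for Npc1, −0.064 to 0.098 for Nr1h2, −0.048 to 0.063 for Sc5d, −0.086 to 0.18 for Srebf1 and −0.20 to 0.069 for Tm7sf2. The difference between knockout and LNA effects was called for 423 genes (303 higher, 120 lower), 958 without KO replicates 7 and 9, 971 with limma and 365 with library size alone (195 higher, 170 lower), and for 0 members in each. The cause of these changes was not tested. The culture replicate numbers are not shown to pair libraries. Correlations of same-numbered deviations were 0.0254, −0.224 and 0.0365, and no library correlated best with its own number. With a replicate block 10 members and 1793 genes were called and Nr1h2 was −0.0028. At 9 and 4 cord libraries with this spread, log2 differences of the size seen in the cultures were not called in cords. Nr1h3 in the cultures and Fdps rest on few reads.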

Other observations

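A pair of further lipid genes was lower than 1 normalised CPM in most WT cords and higher in part of the KO cords, and both were picked out after their values were seen. Ch25h, which makes an oxysterol in activated macrophages, had 6.66, 0.283, 6.38, 10.1, 1.58, 3.82, 9.98, 2.27 and 0.783 normalised CPM in KO replicates 1 to 9, against 0.124, 0.3405, 0.378 and 1.03 in WT cords. Soat2, the sterol acyltransferase typical of liver and gut, had 1.67, 0.198, 0.267, 1.85, 0.357, 0.995, 2.102, 0.562 and 0.204 normalised CPM in KO cords, against 0.124, 0.142, 0.126 and 0.286 in WT cords. KO replicates 1, 4 and 7 were highest at both genes. KO replicate 2 and the library labelled KO replicate 9 lay among the WT cords at both, and KO replicate 3 did so at Soat2. Neither passed edgeR's test (adjusted p = 0.292 for both), while DESeq2 gave an adjusted p of 0.0117 for Ch25h and 0.0365 for Soat2.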
